A study of Arabidopsis thaliana with 24 samples.

Results

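ATG8A to ATG8I, the 9 genes of the ATG8 family of Arabidopsis, were followed in shoots in which the α-expansin EXPA1 was or was not induced. The members were taken by gene identifier from the table of estimated counts, 9 of 33602 genes in all. Shoots of 7-day-old Col-0 seedlings came from WT and from EXPA1 OE line 8-4, a single transgenic line in which dexamethasone (Dex) activates a glucocorticoid receptor-based factor expressed from the RPS5A promoter, which is most active in dividing tissue, and this factor switches on an added EXPA1. Each genotype was kept without Dex (WT_ctl and OE_ctl in the data), induced by Dex during 3 h, or raised on Dex throughout their 7 days, with 4 biological replicates in each of the 6 groups and 24 libraries in total. All plants grew in long days on MS medium with sucrose, and WT carried no inducible EXPA1. No label describes a group handled for 3 h without Dex. The 3 h comparison with untreated shoots therefore cannot tell Dex apart from handling or time of harvest.

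Autophagy carries cytoplasm, protein aggregates and worn organelles to the vacuole inside a double membrane, and in plants it feeds cells that are short of carbon or nitrogen. ATG8 is the ubiquitin-like protein at its centre: the ATG4 protease trims its C-terminus to a glycine, ATG7 and ATG3 pass that glycine to a membrane lipid, and the lipid-bound ATG8 shapes the autophagosome and holds cargo receptors such as NBR1. Arabidopsis has several ATG8 genes, and their transcripts are known to rise when sugar or nitrogen runs out.

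The family splits by the end of its coding sequence, which decides whether ATG4 has anything to trim. The last 60 coding bases of each member (RefSeq, TAIR10.1, gene strand) are shown for this reason, 5′ to 3′, stop codon included, with the codon of the conserved glycine in capitals. Residues that follow the glycine numbered 5 in ATG8A and ATG8B, 4 in ATG8E, ATG8F and ATG8G, 3 in ATG8D and 2 in ATG8C.
ATG8A: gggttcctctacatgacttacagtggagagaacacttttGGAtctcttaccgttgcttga
ATG8B: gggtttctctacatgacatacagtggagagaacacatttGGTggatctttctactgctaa
ATG8C: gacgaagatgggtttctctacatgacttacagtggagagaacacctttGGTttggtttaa
ATG8D: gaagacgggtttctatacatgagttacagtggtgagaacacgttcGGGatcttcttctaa
ATG8E: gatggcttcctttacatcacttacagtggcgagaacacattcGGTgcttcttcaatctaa
ATG8F: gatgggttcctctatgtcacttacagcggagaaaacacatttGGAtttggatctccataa
ATG8G: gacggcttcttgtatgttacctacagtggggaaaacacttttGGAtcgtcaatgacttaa
ATG8H: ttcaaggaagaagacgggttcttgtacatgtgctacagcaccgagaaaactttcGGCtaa
ATG8I: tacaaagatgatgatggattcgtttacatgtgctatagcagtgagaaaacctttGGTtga
ATG8H and ATG8I, in contrast, ended at the glycine with 0 residues after it. The proteins had 115 (ATG8I) to 122 residues (ATG8A, ATG8B and ATG8E) in the shortest model that carries this end. Protein identity over the 36 pairs ran from 45.0% (ATG8F and ATG8H) to 87.7% (ATG8A and ATG8B), with a median of 65.5%. The closest pair shared 86.3% of its coding bases and an identical run of at most 53 bases, and none of the members' estimated counts was fractional, against 3.82% of the values of all genes. The genes lie on 4 chromosomes of TAIR10. ATG8E (AT2G45170) is on chromosome 2, 18624264 to 18625717, ATG8F (AT4G16520) on chromosome 4, 9306663 to 9308462, and ATG8I (AT3G15580) on chromosome 3, 5273895 to 5275095. ATG8B (AT4G04620) is on chromosome 4, 2328449 to 2330200, and ATG8H (AT3G06420) on chromosome 3, 1954990 to 1956397. Only ATG8A (AT4G21980, chromosome 4, 11655589 to 11657034) overlapped another gene, AT4G21990 on the opposite strand.

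The libraries held 33618183 to 82187324 estimated counts, and each member had 113 to 6785 counts in each of them, so all 9 passed the filter on low counts in each comparison. EXPA1 itself stood at 17910 to 19040 CPM (counts scaled to a common library size) in EXPA1 OE after 3 h of Dex and at 10920 to 15650 after 7 days, and at 201 to 598 in the other 4 groups. The 4 photosynthesis markers of shoots summed to 31920 to 57470 CPM in each library and the 5 root markers to at most 16.5, so the tissue was shoot by its label. Both marker sums still moved with the groups. The root list rose in 5 of 5 genes in EXPA1 OE against WT at 3 h and the shoot list fell in 4 of 4. Of all genes 27.4% were higher and 25.8% lower there. Without Dex the root list summed to 6.49 to 12.3 CPM in WT and to 1.47 to 3.21 in EXPA1 OE. That EXPA1 OE group is the baseline of the Dex comparisons in the line. The 7 seed storage and embryo genes summed to 131 to 281 CPM in WT without Dex and to 1.85 to 20.1 in EXPA1 OE without Dex. The part of these markers in the results on the family was not tested. In whole shoots, fewer cells of a type and less RNA per cell cannot be told apart.

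In WT without Dex, ATG8F was the most abundant member per length of transcript. Its level was 82.5 ± 21.8 CPM per kb of exon (SD, n = 4 here and for the levels that follow), ahead of ATG8E at 39.1 ± 8.70 and of ATG8I at 31.4 ± 3.79. ATG8A (18.0 ± 2.75) and ATG8C (17.9 ± 2.77) came next, then ATG8H (11.2 ± 3.00) and ATG8B (9.26 ± 1.14), and ATG8D (7.10 ± 0.759) and ATG8G (5.93 ± 0.791) closed the order. The libraries of neighbours in this order overlapped for ATG8E and ATG8I, for ATG8A and ATG8C, for ATG8H and ATG8B, and for ATG8D and ATG8G, and did not overlap for the other 4 pairs of neighbours. The order stayed the same in WT after 3 h of Dex. Among the 6 groups, ATG8E stood above ATG8F only in EXPA1 OE after 3 h, at 88.8 ± 10.8 against 69.3 ± 4.60 CPM per kb, and there the 4 libraries of each did not overlap.

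**Figure D1:**
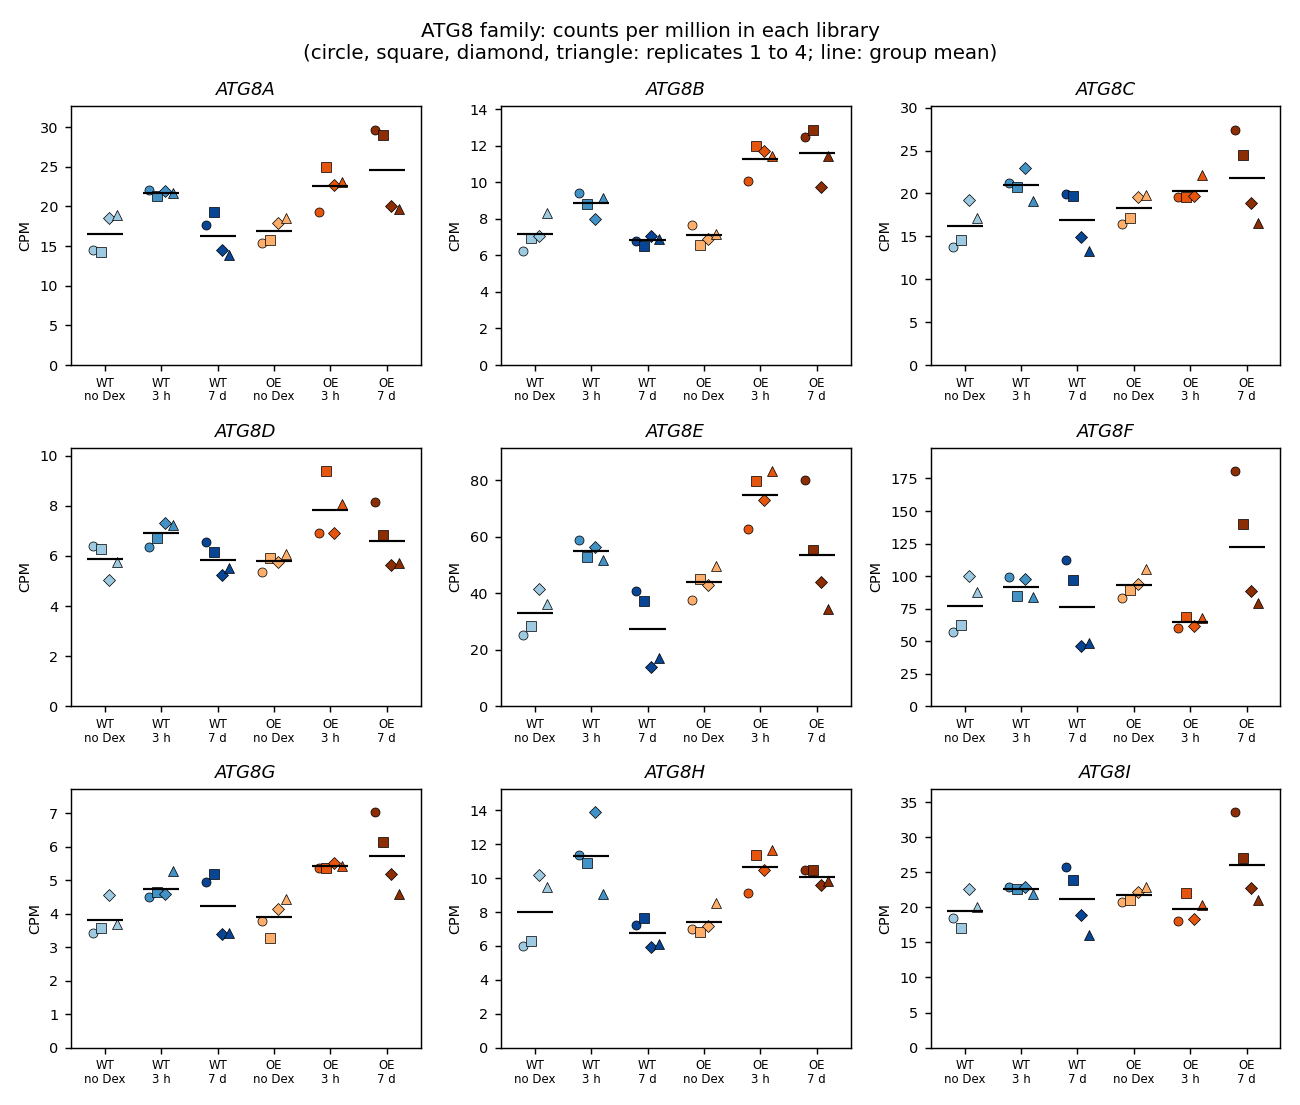
CPM of each member (y axes, from 0, each with its own scale) in the 24 libraries by group (x axes), with 1 marker shape per replicate number and a line at the mean of 4 libraries. ATG8F sits lower in EXPA1 OE at 3 h (60.2 to 68.6 CPM) than in WT at 3 h (84.0 to 99.6 CPM), ATG8E sits higher there, and most 7-day panels part between replicates 1 and 2 and replicates 3 and 4.

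The members' shares of the family's transcripts showed the same order. ATG8F made up 33.8% ± 1.23 (SD, n = 4) of the summed CPM per kb of the 9 members in WT after 3 h of Dex, and 24.4% ± 0.688 in EXPA1 OE. ATG8E made up 22.6% ± 0.387 in WT and 31.2% ± 1.31 in EXPA1 OE at that time. The libraries of the 2 genotypes did not overlap for either share, which were not tested. Without Dex the ATG8E share was already higher in EXPA1 OE, at 20.2% ± 0.997 against 17.5% ± 0.701 with no overlap, whereas the ATG8F shares overlapped (38.6% ± 0.645 and 36.7% ± 2.69). The family sum itself was 229 to 256 CPM in WT after 3 h and 211 to 254 CPM in EXPA1 OE, with overlapping libraries. Without Dex the sums were 152 to 229 CPM in WT and 197 to 243 in EXPA1 OE, and after 7 days 130 to 242 and 203 to 390.

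**Figure D2:**
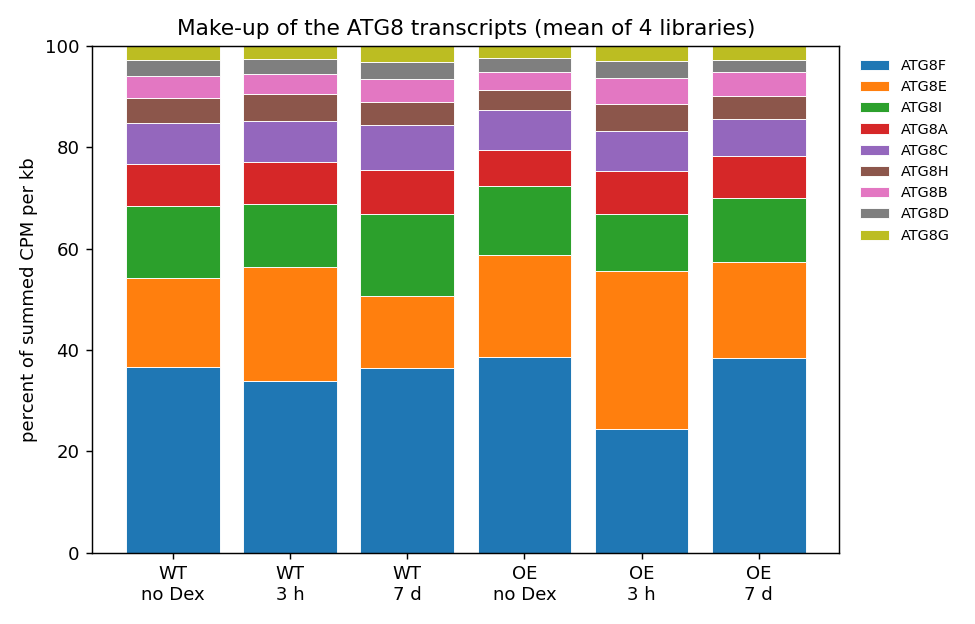
Mean percent of the summed CPM per kb that each of the 9 members made up (y axis, 0 to 100, mean of 4 libraries) in each group (x axis). The ATG8F segment is 33.8% in WT and 24.4% in EXPA1 OE at 3 h, and the ATG8E segment is 22.6% and 31.2%.

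After 3 h of Dex, EXPA1 OE differed from WT in ATG8E and ATG8B, which were higher, and in ATG8F and ATG8I, which were lower. At an adjusted p under 0.05 these were 2 of 9 members higher and 2 lower, beside 27.4% of 20449 tested genes higher and 25.8% lower. None of the 9 also reached a log2 fold change of 1 in size, which 9.40% of all genes did. The median log2 fold change was 0.06 over the members and 0.02 over all genes.

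ATG8F was at 60.2, 68.6, 61.9 and 68.2 CPM in EXPA1 OE after 3 h and at 99.6, 84.6, 97.8 and 84.0 CPM in WT after 3 h. All 4 EXPA1 OE libraries lay below all 4 WT libraries. The log2 fold change was -0.49, with a standard error (SE) of 0.07 and an adjusted p = 0.000239 in the quasi-likelihood F test of edgeR. ATG8E was at 62.7, 79.8, 72.9 and 83.3 CPM in EXPA1 OE and at 58.8, 53.0, 56.3 and 52.0 CPM in WT. Here all 4 EXPA1 OE libraries lay above the WT libraries, with a log2 fold change of 0.45 (SE 0.08, adjusted p = 0.00103). Both differences kept an adjusted p under 0.05 when any of the 8 libraries was left out, with 0.00116 (ATG8F) and 0.00481 (ATG8E) as the highest values. They lost it when all 24 libraries were fitted together (adjusted p = 0.149 for ATG8F and 0.192 for ATG8E), a fit that shares 1 estimate of spread with the 7-day groups.

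ATG8B, the closest relative of ATG8A, was at 10.1, 12.0, 11.7 and 11.5 CPM in EXPA1 OE and at 9.41, 8.81, 7.99 and 9.16 CPM in WT after 3 h, again with no overlap. Its log2 fold change was 0.37 (SE 0.08, adjusted p = 0.00286). ATG8I, which needs no trimming before it is joined to lipid, was at 18.0, 22.1, 18.3 and 20.3 CPM in EXPA1 OE and at 22.9, 22.7, 22.9 and 21.9 CPM in WT. The highest EXPA1 OE library reached into the WT range, and the log2 fold change was -0.18 (SE 0.07, adjusted p = 0.0413). That call was lost without 6 of the 8 libraries in turn, namely WT replicates 1, 2 and 3 and EXPA1 OE replicates 1, 3 and 4, with adjusted p of up to 0.115. ATG8G lay above WT in all 4 EXPA1 OE libraries and missed the threshold (log2 fold change 0.20, SE 0.08, adjusted p = 0.0647). Groups without overlap were found for 4 of 9 members in this comparison, 3 above and 1 below, and for 48.3% of all tested genes. ATG8A, ATG8C, ATG8D and ATG8H had log2 fold changes of -0.07 to 0.19 and adjusted p of 0.163 to 0.675.

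**Figure D3:**
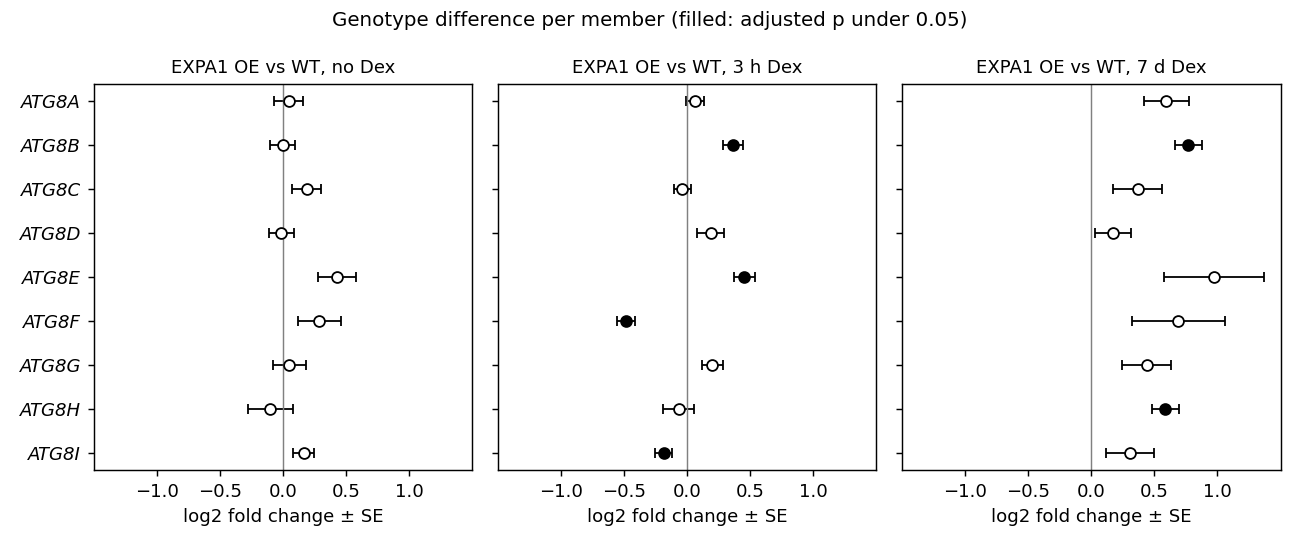
Log2 fold change of EXPA1 OE against WT (x axis, with the standard error as bars) for each member (y axis) without Dex, after 3 h and after 7 days of Dex, filled where the adjusted p was under 0.05. Filled points lie on both sides of 0 at 3 h (ATG8F at -0.49, ATG8E at 0.45) and only to the right at 7 days (ATG8B at 0.77, ATG8H at 0.59).

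The 300 bases upstream of the most upstream annotated start are shown for ATG8E and ATG8F (RefSeq, TAIR10.1, gene strand, 5′ to 3′). Their differences between the genotypes at 3 h had opposite signs. For ATG8E the difference was 0.43 already without Dex (not past the test) and 0.45 at 3 h. Capitals mark TGACG, the core that TGA-type bZIP factors bind, or its reverse complement CGTCA. The ATG8E window is chr2:18623964-18624263 on the plus strand and the ATG8F window is chr4:9308539-9308838 on the minus strand.
ATG8E: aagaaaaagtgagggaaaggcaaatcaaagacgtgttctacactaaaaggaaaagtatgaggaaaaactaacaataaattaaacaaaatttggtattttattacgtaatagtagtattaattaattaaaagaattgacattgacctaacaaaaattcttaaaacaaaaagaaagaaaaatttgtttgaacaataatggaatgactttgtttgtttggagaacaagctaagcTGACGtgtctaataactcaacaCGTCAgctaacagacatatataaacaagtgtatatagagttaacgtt
ATG8F: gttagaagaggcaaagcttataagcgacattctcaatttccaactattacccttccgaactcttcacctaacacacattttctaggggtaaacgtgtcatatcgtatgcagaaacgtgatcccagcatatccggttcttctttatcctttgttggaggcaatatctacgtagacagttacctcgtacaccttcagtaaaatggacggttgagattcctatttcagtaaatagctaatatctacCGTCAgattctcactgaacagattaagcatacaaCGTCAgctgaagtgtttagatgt
The motif lay 69 and 47 bases before the start in ATG8E and 57 and 23 bases before it in ATG8F, so it did not part the member that was higher from the one that was lower. It was found on either strand in 6 of 9 members' windows (not in those of ATG8B, ATG8C and ATG8D) and in 20.9% of 32831 windows of the same length over all genes. The ATG8I window, with 3 matches, overlaps an annotated tRNA gene (AT3G15585). The G-box CACGTG was in 0 of 9 windows and in 6.42% of all windows, and the ER stress response element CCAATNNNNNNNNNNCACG, whose end shares CACG with the G-box and whose free bases can hold TGACG, was in 0 of 9 and in 0.673% of all windows. These are letter matches only.

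After 7 days of Dex all 9 members had a higher mean in EXPA1 OE than in WT, and ATG8B and ATG8H passed the test. These were 2 of 9 higher and 0 lower at an adjusted p under 0.05, beside 6.72% of 20665 genes higher and 7.37% lower. None reached a log2 fold change of 1 in size together with that p, as 3.88% of all genes did. With all 24 libraries in 1 fit 5 of 9 members passed, ATG8A (adjusted p = 0.00293), ATG8E (0.0111) and ATG8G (0.0294) being added. That fit shares 1 estimate of spread between the 7-day groups and the other groups. It called more genes in general, with 1246 of 21413 past the adjusted p and the fold threshold, against 801 of 20665 in the main fit. The share of all genes past the adjusted p alone was not counted there. The members' median log2 fold change was 0.59, against 0.00 over all genes. A shift to 1 side was not particular to the family. All 44 tested genes of the other autophagy lists described below were above 0 there too (0.03 to 0.67, median 0.23).

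ATG8B was at 12.5, 12.9, 9.72 and 11.4 CPM in EXPA1 OE after 7 days and at 6.80, 6.53, 7.05 and 6.92 CPM in WT after 7 days. The lowest EXPA1 OE library lay well above the highest WT library. The log2 fold change was 0.77 (SE 0.10, adjusted p = 0.00330), and it held without any 1 of the 8 libraries (adjusted p of at most 0.0144). ATG8H, the other member that ends at its glycine, was at 10.5, 10.5, 9.57 and 9.85 CPM in EXPA1 OE and at 7.26, 7.64, 5.96 and 6.09 CPM in WT. Its groups did not overlap either, and the log2 fold change was 0.59 (SE 0.11, adjusted p = 0.0106). ATG8A missed the threshold with groups that did not overlap (0.60, SE 0.18, adjusted p = 0.056) and passed it without EXPA1 OE replicate 4 (0.0484) and by DESeq2 (0.0135). Groups without overlap were found for these 3 members, all above WT, and for 23.2% of all tested genes.

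ATG8E and ATG8F had the widest spread at 7 days. ATG8F was at 181, 140, 88.7 and 79.8 CPM in EXPA1 OE and at 112, 97.3, 46.0 and 48.3 CPM in WT, in the order of the replicate numbers. Replicates 1 and 2 were the high ones in both genotypes, and the groups overlapped (log2 fold change 0.69, SE 0.37, adjusted p = 0.231). ATG8E was at 80.1, 55.5, 43.9 and 34.5 CPM in EXPA1 OE and at 40.7, 37.4, 13.8 and 17.2 CPM in WT (log2 fold change 0.97, SE 0.40, adjusted p = 0.133). Deviations of same-numbered libraries were correlated at 7 days (r of 0.160 to 0.486). Only 4 of 8 libraries were most like the one sharing their number, and no label or method states a pairing. With the replicate number as a block, a fit chosen from these data, 8 of 9 members were higher at an adjusted p under 0.05, all but ATG8D. Without the block these were 2 of 9. In that blocked fit 14.9% of all genes were higher, 15.5% lower and 5.56% also past a log2 fold change of 1 in size, as was 1 member, ATG8E. There ATG8E had a log2 fold change of 1.05 (SE 0.16, adjusted p = 0.00658) and ATG8F one of 0.72 (SE 0.07, adjusted p = 0.00207). The blocked adjusted p was 0.00381 for ATG8A, 0.00947 for ATG8C, 0.0242 for ATG8G and 0.0181 for ATG8I.

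Within replicates 1 and 2 alone, 2 libraries against 2, ATG8F had a log2 fold change of 0.62 between the genotypes at 7 days. Within replicates 3 and 4 it had one of 0.83. ATG8E had 0.80 and 1.33. Both members had values above 0 within each pair. The pairs were taken from the parting in these same data, and the error of such fits leaves out the difference between the pairs. These values are therefore given with no test.

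This parting of the 7-day libraries ran through the family. In EXPA1 OE, 9 of 9 members were higher in replicates 1 and 2 than in replicates 3 and 4, and in WT 8 of 9 were, with ATG8B the exception. Over 18229 genes at a mean of 1 CPM or more, 34.8% in EXPA1 OE and 37.1% in WT parted in that direction. In WT the mean of replicates 1 and 2 was 2.52 times that of replicates 3 and 4 for ATG8E and 2.22 times for ATG8F, and 1.18 to 1.48 times for ATG8A, ATG8C, ATG8D, ATG8G, ATG8H and ATG8I. The list of 7 starvation and senescence markers did not part as 1 group. DIN6, SEN1 and DIN10, genes known to rise in the dark when sugar is short, were higher in replicates 1 and 2 in both genotypes. SAG13 and AT3G10980 were lower in both, as was DIN2 in EXPA1 OE. This made 3 markers above and 2 below in WT and 3 above and 3 below in EXPA1 OE. AT3G10980 entered this and the other counts of the list by its identifier, and its use as a senescence marker was not checked. With AT3G10980 left out, SAG13 was still lower in both genotypes. The sizes were unlike. The ratio of means ran from 2.23 (DIN10 in EXPA1 OE) to 17.5 (DIN6 in WT) for the first 3 genes. For AT3G10980 it was 0.932 in WT and 0.837 in EXPA1 OE. SAG13 was at only 0.0519 to 2.54 CPM in these libraries. DIN10 was at 591, 574, 110.0 and 237 CPM in WT after 7 days and at 1537, 1036, 636 and 520 CPM in EXPA1 OE. SAG12, a marker of leaf senescence, was at 0 in all 24 libraries. WT without Dex parted in the opposite direction, with 8 of 9 members lower in replicates 1 and 2 (ATG8F at 57.5 and 62.6 CPM against 100.1 and 87.9) beside 37.4% of the 18229 genes lower and 35.1% higher, and DIN10 was lower too (272 and 388 CPM against 723 and 576). In EXPA1 OE without Dex 6 of 9 members were lower in replicates 1 and 2 and 0 higher, beside 21.5% of genes lower and 21.1% higher, and no marker parted. The part that carbon status, harvest or other differences between replicates had in this was not tested.

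Without Dex no member passed the test between the genotypes. Counts were 0 of 9 higher and 0 lower, beside 3.52% of 20596 genes higher and 7.02% lower, and 3.16% past a log2 fold change of 1 in size. ATG8E was the 1 member that had an unadjusted p under 0.05 (by edgeR and by DESeq2, which also put 0 members past an adjusted p of 0.05). ATG8E was at 37.8, 44.9, 43.1 and 49.7 CPM in EXPA1 OE and at 25.4, 28.6, 41.6 and 36.1 CPM in WT, with overlapping groups (log2 fold change 0.43, SE 0.15, adjusted p = 0.101). It passed the threshold without WT replicate 3 (adjusted p = 0.0349) and with library totals in place of TMM scaling (0.0373). The members' log2 fold changes ran from -0.10 (ATG8H) to 0.43.

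Much of the family was also higher at 3 h of Dex than without Dex in WT, where no EXPA1 is induced. In WT 5 of 9 members were higher at an adjusted p under 0.05 and 0 lower, beside 18.6% of 20571 genes higher and 17.9% lower. None was past a log2 fold change of 1 in size, against 8.94% of all genes. ATG8E rose from 25.4, 28.6, 41.6 and 36.1 CPM without Dex to 58.8, 53.0, 56.3 and 52.0 CPM after 3 h with no overlap (log2 fold change 0.76, SE 0.14, adjusted p = 0.00288), and ATG8A rose by 0.41 (SE 0.10, adjusted p = 0.0109). These 2 calls held without any 1 of the 8 libraries. ATG8C rose by 0.39 (SE 0.11, adjusted p = 0.0205), ATG8G by 0.33 (SE 0.12, adjusted p = 0.0492) and ATG8B by 0.32 (SE 0.10, adjusted p = 0.0377), and these calls rested on single libraries. Each was lost without WT replicate 1 or 2 without Dex or WT replicate 1, 2 or 3 after 3 h, and those of ATG8B and ATG8G also without WT replicate 4 after 3 h and without WT replicate 3 (ATG8B) or 4 (ATG8G) of the shoots without Dex. The highest adjusted p was 0.0873 for ATG8C, 0.182 for ATG8G and 0.129 for ATG8B. ATG8F did not pass (0.26, SE 0.17, adjusted p = 0.254). Of 6 tested starvation and senescence markers, 3 rose in the same comparison (DIN10 by 1.35, SEN1 by 2.21 and DIN6 by 2.22) and SAG13 fell (-1.34, SE 0.33, adjusted p = 0.0114), while DIN2 (-0.74) and AT3G10980 (0.03) did not pass.

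In EXPA1 OE after 3 h of Dex, 6 of 9 members were higher and 1 lower than in the same line without Dex, beside 33.7% of 20548 genes higher and 33.3% lower, and 0 members against 18.1% of all genes were past a log2 fold change of 1 in size. ATG8E rose by 0.76 (SE 0.10, adjusted p = 4.74e-05) and ATG8B by 0.66 (SE 0.08, adjusted p = 2.09e-05). ATG8H, ATG8G, ATG8D and ATG8A rose by 0.41 to 0.52. ATG8F fell, from 83.1, 89.6, 94.3 and 106 CPM to 60.2, 68.6, 61.9 and 68.2 CPM with no overlap (-0.53, SE 0.08, adjusted p = 9.5e-05, and 0.103 with all 24 libraries in 1 fit). Groups did not overlap for 7 of 9 members, against 62.4% of all tested genes. These comparisons share libraries with those between the genotypes at 3 h.

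The test of the difference itself, genotype by Dex over 16 libraries, found ATG8F and ATG8I lower and ATG8B higher in the 3 h response of EXPA1 OE than in that of WT. These were 1 of 9 members higher and 2 lower, beside 17.6% of 21090 genes higher and 20.9% lower, and 12.2% past a log2 fold change of 1 in size, which no member reached. The difference was -0.80 for ATG8F (SE 0.20, adjusted p = 0.00501) and -0.37 for ATG8I (SE 0.11, adjusted p = 0.0168), with 0.129 and 0.204 when all 24 libraries were fitted together. ATG8B differed by 0.34 (SE 0.13, adjusted p = 0.0447), a call lost without 11 of the 16 libraries in turn (adjusted p of up to 0.0967) and without the filter on low counts (0.0623). For ATG8E the difference was 0.00 (SE 0.19, adjusted p = 0.998), with a fitted rise of 0.76 in each genotype. ATG8I kept its call without 14 of 16 libraries and lost it without EXPA1 OE replicate 1 or 3 after 3 h (adjusted p of 0.0547 to 0.0589).

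Over 7 days on Dex, no member passed the test in WT. Counts were 0 of 9 higher and 0 lower, beside 0.00482% of 20768 genes higher, 0.00482% lower and 0.00482% past a log2 fold change of 1 in size. No member had an unadjusted p under 0.05 by edgeR or by DESeq2. Log2 fold changes ran from -0.27 (ATG8E) to 0.15 (ATG8G). Since WT parted in opposite directions with and without Dex, the value turned with the replicates taken. ATG8F stood at 0.80 in replicates 1 and 2 alone and at -0.98 in replicates 3 and 4 alone, and ATG8E at 0.53 and -1.30, which restates that parting and is given with no test.

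In EXPA1 OE 4 of 9 members were higher after 7 days than without Dex and 0 lower, beside 15.1% of 20104 genes higher and 14.4% lower, and 6.24% past a log2 fold change of 1 in size, which no member reached. ATG8B rose by 0.72 (SE 0.10, adjusted p = 0.00139) and ATG8H by 0.45 (SE 0.09, adjusted p = 0.00631). ATG8G (0.55, adjusted p = 0.0272) and ATG8A (0.55, adjusted p = 0.0268) rose as well, and lost their calls without EXPA1 OE replicate 1, 2 or 3 without Dex or replicate 2 after 7 days, with adjusted p of up to 0.0767 and 0.0773. The values again differed between the pairs of replicates, with ATG8A at 0.92 in replicates 1 and 2 and 0.15 in replicates 3 and 4, ATG8G at 0.90 and 0.21, ATG8H at 0.60 and 0.33, and ATG8B at 0.83 and 0.61.

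The genotype difference after 7 days exceeded that without Dex in the fitted values of all 9 members (0.16 to 0.79, median 0.42). Only ATG8B passed the test, at 0.79 (SE 0.14, adjusted p = 0.00263), and its call held without any 1 of the 16 libraries. This was 1 of 9 members higher and 0 lower, beside 6.74% of 21180 genes higher and 3.55% lower, and 4.10% past a log2 fold change of 1 in size. The shift to 1 side was again not particular to the family. In the other autophagy lists described below, 9 of 9, 6 of 8, 13 of 15 and 12 of 12 genes were above 0 in this contrast (median 0.10). ATG8H missed the threshold (0.70, SE 0.22, adjusted p = 0.0548) and passed it without WT replicate 1 or 2 without Dex (0.0193 and 0.0271) or WT replicate 2 at 7 days (0.0493). It also passed with exon counts (0.0497), DESeq2 (0.0213), library totals (0.0435) and all 24 libraries in 1 fit (0.0355).

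The genotype difference at 3 h minus that at 7 days was above 0 in only 1 member, ATG8D (0.01). It was below 0 at an adjusted p under 0.05 for ATG8F, ATG8H, ATG8A and ATG8B. These were 4 of 9 members lower and 0 higher, beside 14.9% of 21141 genes lower and 14.1% higher. The other autophagy lists lay to the same side, with 2 of 9, 2 of 8, 3 of 15 and 3 of 12 genes above 0 (median -0.14). ATG8F, 1 of 9 members, was also past a log2 fold change of 1 in size, as were 8.52% of all genes. Its difference was -1.18 (SE 0.40, adjusted p = 0.0353), and the call was lost without 11 of 16 libraries in turn, namely WT replicates 1, 2 and 3 and all 4 EXPA1 OE replicates at 3 h, WT replicates 3 and 4 and EXPA1 OE replicates 1 and 2 at 7 days (adjusted p of up to 0.0759). ATG8H differed by -0.66 (SE 0.17, adjusted p = 0.00907) and kept its call without any 1 of the libraries. ATG8B differed by -0.41 (adjusted p = 0.0228), a call lost without WT replicate 1 or 2 at 3 h, WT replicate 2 at 7 days or EXPA1 OE replicate 2 at 7 days (adjusted p of up to 0.0667). ATG8A differed by -0.54 (adjusted p = 0.0487), a call lost without any library at 3 h and without 4 of the 7-day libraries (up to 0.115).

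Members differed in how they moved together over the 24 libraries. ATG8F and ATG8I had the highest Pearson r of log2 CPM of the 36 pairs, 0.926, although their proteins belong to the groups with and without a tail. ATG8D and ATG8F had the lowest, 0.181, and ATG8A and ATG8B, the closest in sequence, had 0.834. The median pair had 0.686. Libraries share depth, treatment and the parting at 7 days, so these values describe the 24 points and carry no test. Among 18229 genes outside low counts, the gene most like ATG8E was DIN10 (AT5G20250), a dark-inducible gene, at r = 0.969, followed by EXO70A1, a subunit of the exocyst that tethers vesicles, at 0.961. Those most like ATG8F were ML2, a MEI2-like gene, at 0.957, and AT5G42560 at 0.956, and AT5G42560 was also the closest to ATG8I (0.924). ATG8B was most like CALS1, a callose synthase, at 0.931, and TRE1, a trehalase, at 0.926. The 5 genes most like the mean of the 9 members were AT5G32440 (0.974), UBC1, a ubiquitin-conjugating enzyme (0.964), RAB8, a small GTPase of secretion (0.964), AP19, a clathrin adaptor subunit (0.958), and VTI1B, a SNARE also known as VTI12 (0.957).

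**Figure D4:**
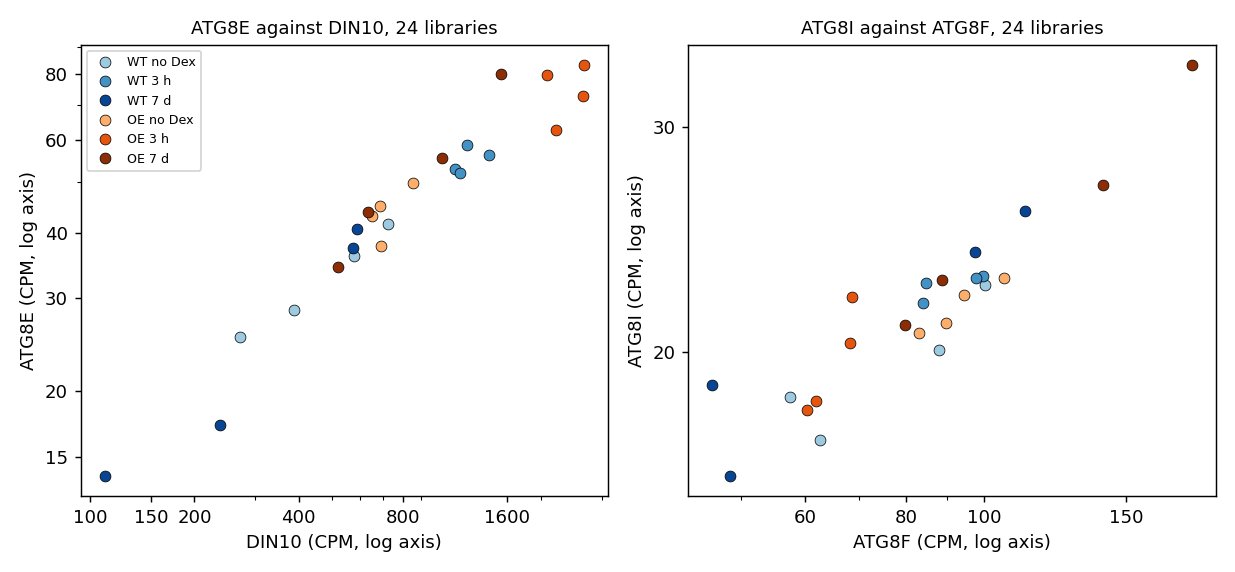
ATG8E against DIN10 (left) and ATG8I against ATG8F (right) in CPM on log axes, 1 point for each of the 24 libraries, coloured by group. The points follow a line with r = 0.969 on the left and 0.926 on the right, and the libraries of EXPA1 OE at 3 h sit at the top of the left panel and in the lower part of the right panel.

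The other autophagy genes had small fold changes in the same comparisons. In 4 lists of 45 genes (the enzymes that trim and join ATG8, the ATG1 and ATG13 kinase complex, membrane delivery with the PI3P proteins, and receptors that bind ATG8), 44 were tested. After 3 h 12 were higher and 6 lower in EXPA1 OE than in WT, beside 27.4% and 25.8% of all genes, with a median log2 fold change of 0.07. None of the 44 reached a log2 fold change of 1 in size with an adjusted p under 0.05 in any of the 10 comparisons. Of the 9 trimming and joining genes, 4 were higher and 0 lower at 3 h, among them ATG3, the enzyme that joins ATG8 to lipid (0.12, SE 0.05, adjusted p = 0.0437). Of 15 membrane genes tested, 3 were higher and 3 lower, with ATG18B, a PI3P-binding protein, at 0.49 (SE 0.08, adjusted p = 0.00032). Of 12 receptors and adaptors 3 were higher and 2 lower, with FYVE1 (AT1G20110), an endosomal FYVE-domain protein, at 0.36 (SE 0.05, adjusted p = 0.000159). Of 8 genes of the kinase complex 2 were higher and 1, ATG11, was lower (-0.18, SE 0.06, adjusted p = 0.02). After 7 days 2 of 44 were higher and 0 lower (beside 6.72% and 7.37% of all genes), with a median of 0.23. All 44 values were above 0 at that time, from 0.03 to 0.67. Without Dex 2 were higher and 0 lower (beside 3.52% and 7.02%), with a median of 0.16.

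In EXPA1 OE after 3 h against no Dex, 7 of these 44 genes were higher and 17 lower, beside 33.7% and 33.3% of all genes. The kinase complex list had 6 of 8 genes lower and 1 higher. After 7 days against no Dex, 6 of 12 receptors and adaptors were higher and 0 lower in EXPA1 OE, beside 15.1% and 14.4% of all genes, among them NBR1, the receptor of ubiquitinated cargo, at 0.50 (SE 0.09, adjusted p = 0.00391), and RPN10, which ties ATG8 to the proteasome, at 0.26 (SE 0.04, adjusted p = 0.0023). Of 4 genes of the energy sensing kinases and the TOR complex, 1 was higher at 3 h between the genotypes. This was RAPTOR1B of the TOR complex (0.30, SE 0.06, adjusted p = 0.0012). The kinase genes TOR, KIN10 and KIN11 did not pass at 3 h (adjusted p of 0.0502 to 0.425). The list had 0 genes past the test at 7 days. Of 6 tested starvation and senescence markers, DIN10 was higher in EXPA1 OE at 3 h (0.97, SE 0.10, adjusted p = 1.38e-05). The other 5 had values below 0 at 3 h and did not pass, among them DIN6 at -0.66 (SE 0.26, adjusted p = 0.052) and SEN1 at -0.40 (SE 0.16, adjusted p = 0.0563). The median of the list was -0.21 at 3 h. After 7 days 4 of the 6 markers were above 0 between the genotypes, and DIN2 passed the test with groups that did not overlap (1.29, SE 0.36, adjusted p = 0.0474). SEN1 (1.92), DIN6 (1.62) and DIN10 (1.31) did not pass at that time. SAG13 (-1.53) and AT3G10980 (-0.09) were below 0 and did not pass either.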

How the data were processed

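RNA was measured in 24 shoot libraries, 6 groups of 4, mapped from their titles since the labels hold treatment under genotype. Per the labels and the study's methods, polyA RNA was sequenced from a stranded library. Trimmomatic, the STAR aligner and the TAIR10 genome are named in the submitters' notes, and the authors deposited a table of estimated counts per gene (expected counts by RSEM, not normalized) and a table of raw exon counts by featureCounts. Labels and methods differ on the kit and read length, and neither says whether the molecular identifiers were used to remove duplicates. Counting error alone is therefore not a measure of the precision, which comes from the 4 replicates of a group.

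Estimated counts were rounded and tested with edgeR 4.0.16 in R 4.3.3 (filter by expression, TMM scaling, quasi-likelihood F test, Benjamini-Hochberg adjustment over all tested genes) on the 8 libraries of a pair of groups or the 16 of a contrast of 4 groups. The test was also run on simulated counts of independent libraries. These lacked the parting of the 7-day libraries, and no result here rests on them. Standard errors were derived from the F statistic (absolute log2 fold change over its square root). A member was called at an adjusted p under 0.05, and, by the study's fuller rule, when its log2 fold change was also 1 or more up or down. Log2 CPM used a prior count of 2, and CPM per kb the exon length of the exon table. Same-numbered libraries were taken as paired only where all correlations of their deviations from the group mean were above 0.1, which held for the genotypes at 7 days (0.160 to 0.486), although only 4 of 8 libraries were most like the one sharing their number. No label or method states a pairing. Alternatives were the exon counts, DESeq2 1.42.0, median-of-ratios size factors, library totals, no filter, no fold threshold, 24 libraries in 1 fit, a replicate block, EXPA1 out of the scaling, each library left out in turn and pairs of replicates at 7 days.

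The members, lists and alternatives were chosen with earlier results of these data known. All 9 members are reported. Of the other lists, the rule fixed for naming asked for the fold threshold, which no other autophagy gene passed, so those named are examples past an adjusted p of 0.05 with a name in the reference, chosen after their values were seen. Likeness is Pearson r over 24 libraries among genes passing the filter at a mean of 1 CPM or more. Of 32835 nuclear genes, 32831 lay at an overlapping place in TAIR10.1, which gave the sequences. No protein sequences are shown.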

Additional observations from a re-analysis of the deposited data

Results flagged for a closer look

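In 54 sets of 4 libraries (9 members in 6 groups) 2 had a library that stood apart from the others, where chance alone flags about 5% of sets. ATG8C in EXPA1 OE after 3 h was at 22.1 CPM in 1 library, with the nearest of the others at 19.7. ATG8G in WT after 3 h was at 5.27 CPM in 1 library, with the nearest at 4.64.

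Effects differed between groups by their own test in 8 cases, all by edgeR over 16 libraries. The genotype difference at 3 h minus that without Dex was -0.80 on the log2 scale for ATG8F (adjusted p = 0.00501), -0.37 for ATG8I (0.0168) and 0.34 for ATG8B (0.0447). At 7 days minus no Dex it was 0.79 for ATG8B (adjusted p = 0.00263). At 3 h minus 7 days it was -1.18 for ATG8F (adjusted p = 0.0353), -0.66 for ATG8H (0.00907), -0.41 for ATG8B (0.0228) and -0.54 for ATG8A (0.0487).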

How the results depend on the processing

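Without the fold threshold, members higher numbered 2 and lower 2 for the genotypes at 3 h, 2 higher for the genotypes at 7 days, 5 higher in WT at 3 h, 6 higher and 1 lower in EXPA1 OE at 3 h, 4 higher in EXPA1 OE at 7 days, 1 higher and 2 lower for genotype by Dex at 3 h, 1 higher for genotype by Dex at 7 days, and 4 lower for 3 h minus 7 days. With the fold threshold, the replicate block put 1 member higher for the genotypes at 7 days. Replicates 3 and 4 alone moved the count by 1 member in 3 comparisons. These were the genotypes at 7 days (higher), WT at 7 days against no Dex (lower) and genotype by Dex at 7 days (higher). In those 3 fits of replicates 3 and 4 the genes past the fold threshold numbered 1452, 1175 and 2622 over all tested. With all replicates they numbered 801, 1 and 868. The pairs were taken from the parting in these same data, and the error of such fits leaves out the difference between the pairs. The counts from these 3 fits are therefore no test of the members. Leaving out 1 library moved the count of members lower in 3 h minus 7 days between 0 and 1. The main counts of members past the fold threshold were 1 in that comparison and 0 elsewhere.

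In WT at 7 days against no Dex, the log2 fold change turned with the pair of replicates taken. Replicates 1 and 2 alone gave 0.36 for ATG8A, 0.53 for ATG8E and 0.80 for ATG8F, and replicates 3 and 4 alone gave -0.35 for ATG8C. The cause was not tested. Outside the fits of replicate pairs, no setting reversed a member that passed the test with that setting or in the main fit.

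Over the other settings, 677 of 720 values of single members kept their side of the threshold, 23 lost the call and 20 gained it. Leaving out a library kept 850 of 936 on their side, with 73 calls lost and 13 gained. Values that passed in neither fit count as kept even where their sign changed. ATG8F in WT at 7 days against no Dex, for example, ran from -0.27 to 0.15 over these alternatives. The replicate block lost further calls where libraries were not paired, among them ATG8I between the genotypes at 3 h (adjusted p = 0.0525). The mean level per kb over the 24 libraries moved by less than 1 SD over those libraries with the exon counts, for all 9 members, but the ratio to the exon level was as low as 0.881 (ATG8B), more than the SD within some groups. No scaling moved the median of all genes by over 0.1 on the log2 scale. Depth was 113 counts or more for each member in each library.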
